A study of Mus musculus with 8 samples.

Results

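Interleukin-2 (IL-2), the chains of its receptor and the proteins that carry its signal were examined in mouse CD3 T cells as 10 listed genes, namely Il2, Il2ra, Il2rb, Il2rg, Jak1, Jak3, Stat5a, Stat5b, Cish and Socs2. Members were found by symbol in the annotation of the array's probe sets, each probe set being a group of probes for 1 transcript, and only probe sets with 1 gene symbol were used. This gave 8 measured genes of the 10 listed, out of 22180 genes on the array. Il2rg and Jak3 were not analysed here: no listed probe set carried the symbol Il2rg, and the 1 probe set for Jak3 also carried the symbol of another gene. Of the 22180 genes, 13373 stood above background on at least 1 array, and all 8 measured members were among them.

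The study profiled T cells of C57BL/6J mice, with no further genotype named, on Affymetrix Mouse Gene ST 2.0 arrays, which probe whole transcripts, and asked whether shedding of microvilli, with the T cell receptors they carry, alters gene expression. CD3 T cells had been enriched from spleen and lymph nodes by negative selection and were then held with plate-immobilized antibodies to CD3 and CD28 (iAb), with the same antibodies in soluble form cross-linked by a secondary anti-hamster IgG (sAb), or with sAb plus latrunculin A (sAb+LatA), which sequesters actin monomers and so breaks down the actin cytoskeleton. Cells were harvested after 3 h, or were washed at 3 h and cultured until 24 h, so that the 24 h arrays describe cells cultured on after the stimulus was washed away. The other 2 arrays held cells given latrunculin A without antibody (LatA) and untreated naive T cells at steady state. The labels give the LatA array only a control time, and the methods describe it as a treatment of 3 h.

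Each of the 8 conditions was measured on 1 array, so a difference between a pair of arrays has no replicate error and no test, and 1.5-fold was used as the mark of a higher or lower gene. Values are deposited log2 expression levels, in which 1 unit is a doubling, and levels of different genes are not set against each other. A gene was counted as above background on an array when its value exceeded the 95th percentile of 1443 probe sets for olfactory, vomeronasal and taste receptors, genes that T cells are not known to use. That background lay between 4.70 and 4.99 on the 8 arrays, and 11507 to 12320 genes stood above it. Because each array holds RNA from a mixed population, fewer expressing cells and less RNA per cell cannot be told apart.

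The labelled cell type was borne out by its markers. All 7 measured T cell markers (Cd3d, Cd3e, Cd3g, Cd4, Cd8a, Cd8b1 and Cd28) were above background on all 8 arrays, and their mean ran from 10.58 to 10.82 with antibody and from 10.56 to 10.72 without. Of 6 measured NK cell markers only Ncr1 was ever above background, whereas 7 of 8 measured B cell markers were above background on at least 1 array. Of these Cd79b was above it on all 8 arrays (6.09 to 6.60), Cr2 never was, and the mean of the list was 4.89 to 5.35 with antibody, against 4.99 in naive T cells. Myeloid and dendritic markers had a mean of 4.70 to 5.46 on the 6 antibody arrays, against 5.81 to 6.03 on the arrays without antibody, and 9 of 11 were above background somewhere while Itgam and Siglech never were. The 9 regulatory T cell markers, a list that matters here because those cells carry the IL-2 receptor alpha chain at rest, were all above background on every array and had a mean of 8.32 to 8.69 with antibody, against 8.05 to 8.18 without. That difference rested on Gpr83 (8.28 to 8.96 with antibody, against 5.23 in naive T cells), and the mean of the other 8 markers overlapped, at 8.24 to 8.74 with antibody and 8.43 to 8.54 without. The 7 measured memory T cell markers were likewise above background on every array, with means of 8.03 to 8.59 with antibody and 8.35 on both arrays without it, so the naive T cells were not free of memory-type transcripts. The part of these cell types in the results below was not tested.

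IL-2 is the growth factor that T cells make for themselves and their neighbours after the T cell receptor and CD28 are engaged, and its gene is switched on by NFAT, AP-1 and NF-κB factors acting on a short promoter. The receptor's alpha chain (CD25, from Il2ra) captures IL-2, whereas the beta chain (Il2rb) and the common gamma chain (Il2rg) carry the signal to the kinases JAK1 and JAK3. These phosphorylate STAT5A and STAT5B, which enter the nucleus and raise further genes, among them Il2ra and the feedback inhibitors CIS (Cish) and SOCS2.

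The promoters of the ligand and of a feedback target are shown because they are the opposite ends of this circuit. Both sequences are RefSeq's, build GRCm38.p6, and run from 250 bases before the annotated start site to 50 after it, 5′ to 3′ on the gene's strand. In the first, for Il2 (chr3:37125905-37126204, minus strand), capitals mark the NFAT core GGAAAA on either strand. In the second, for Cish (chr9:107296409-107296708, plus strand), capitals mark the STAT5 motif TTCNNNGAA.
Il2: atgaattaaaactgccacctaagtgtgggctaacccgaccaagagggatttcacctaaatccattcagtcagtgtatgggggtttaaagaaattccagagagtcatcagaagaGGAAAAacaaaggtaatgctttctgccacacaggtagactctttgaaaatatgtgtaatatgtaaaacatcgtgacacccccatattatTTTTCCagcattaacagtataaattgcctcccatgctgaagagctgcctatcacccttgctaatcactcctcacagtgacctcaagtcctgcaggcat
Cish: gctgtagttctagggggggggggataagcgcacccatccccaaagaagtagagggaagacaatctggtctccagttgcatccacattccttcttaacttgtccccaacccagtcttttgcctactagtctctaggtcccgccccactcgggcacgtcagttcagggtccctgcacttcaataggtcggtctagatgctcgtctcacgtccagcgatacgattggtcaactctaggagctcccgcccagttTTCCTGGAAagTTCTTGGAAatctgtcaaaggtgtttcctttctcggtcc
The Il2 window held 2 NFAT cores, at positions −137 and −48 relative to the start site, and no match to the AP-1 motif TGANTCA or to TTCNNNGAA. The Cish window held 2 STAT5 motifs, beginning at the start site itself and 11 bases after it, and 1 NFAT core that overlapped the first of them. Both strands were searched, and of 32851 promoters of 300 bases 8.30% held TTCNNNGAA, 7.81% held TGANTCA and 23.4% held GGAAAA. No STAT5 or AP-1 motif was found in the windows of Il2ra, Il2rg, Jak1, Jak3, Stat5a or Stat5b, and among these 6 genes only Jak3 had an NFAT core. Matches are descriptions of letters and do not show binding.

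Il2, the ligand, was below background before stimulation, rose above it at 3 h under every form of antibody and was below it again at 24 h. It stood at 3.27 with LatA alone and 3.15 in naive T cells, at 7.35 with iAb, 7.98 with sAb+LatA and 6.65 with sAb at 3 h, and at 4.14 with iAb, 3.48 with sAb+LatA and 4.05 with sAb at 24 h. The 3 arrays taken at 3 h with antibody were the only ones above background, and the level was highest with sAb+LatA. Counted from the background of the naive array, its highest level gave a range of at least 2.99 over the 8 arrays, where the median range of the 13373 genes was 0.71.

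Since naive T cells were below background for Il2, the 3 h differences are lower bounds, taken against the background of the naive array. Il2 was at least 5.13-fold higher with iAb, at least 7.96-fold higher with sAb+LatA and at least 3.15-fold higher with sAb than in naive T cells. At 24 h it was at least 6.18-fold lower than at 3 h with iAb, at least 9.22-fold lower with sAb+LatA and at least 3.71-fold lower with sAb. At 24 h no difference between stimuli can be given for Il2, because every array was below background.

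Il2ra, whose product CD25 gives the receptor its high affinity, was already measurable at rest and remained high after washing. Its level was 8.20 with LatA alone and 8.21 in naive T cells, 11.43 with iAb, 10.87 with sAb+LatA and 10.22 with sAb at 3 h, and 11.09 with iAb, 11.29 with sAb+LatA and 11.10 with sAb at 24 h. The 6 antibody arrays lay 2.01 or more above both arrays without antibody, and the arrays differed in order at 3 h but stood within 0.20 of one another at 24 h.

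Il2rb, the signalling beta chain that IL-15 also uses, moved little. Its level was 11.16 with LatA alone and 11.11 in naive T cells, 10.64 with iAb, 10.83 with sAb+LatA and 10.64 with sAb at 3 h, and 11.21 with iAb, 11.44 with sAb+LatA and 11.12 with sAb at 24 h. The 3 h arrays were the lowest, the 24 h arrays lay at or above the naive level, and no difference from naive T cells reached 1.5-fold.

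**Figure D1:**
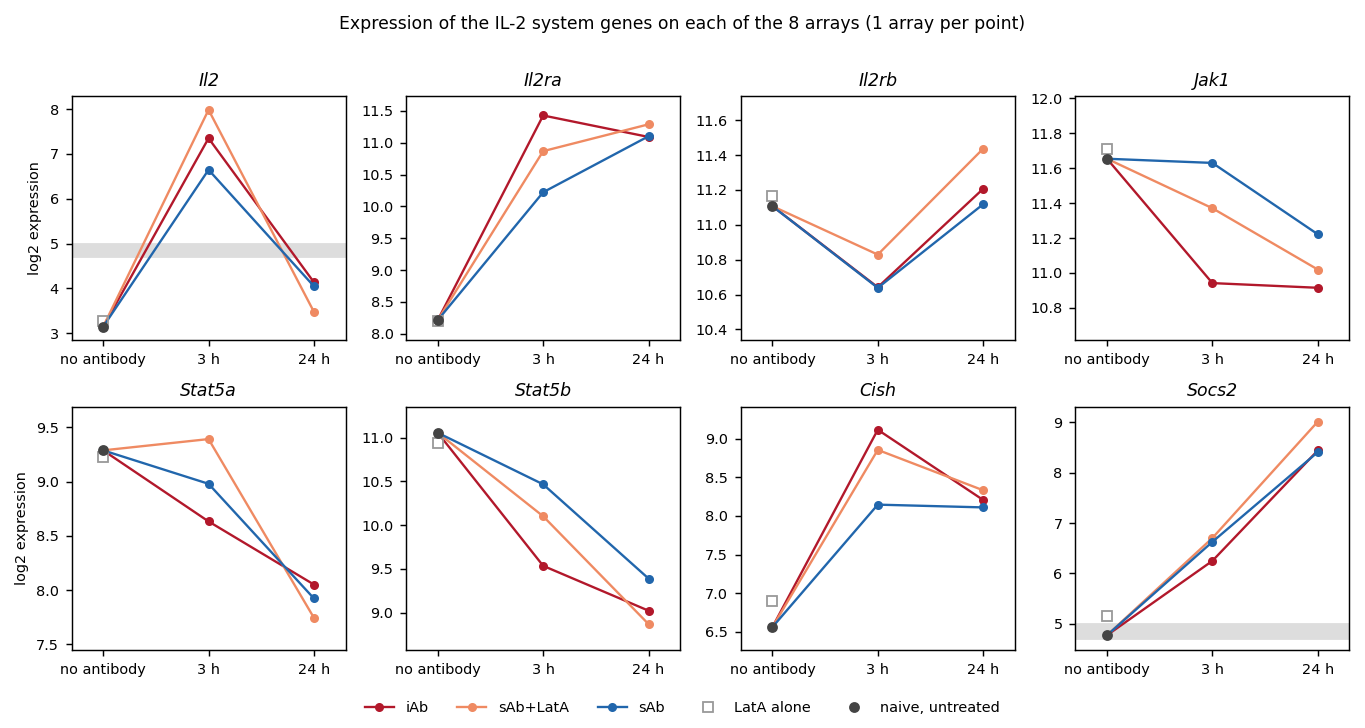
Expression (log2, deposited values) of the 8 measured genes with no antibody, at 3 h and at 24 h, with 1 array per point and lines joining the naive array to each stimulus. The grey band, drawn where it falls in the panel, spans the background of the 8 arrays (4.70 to 4.99). Il2 peaked at 3 h and fell below the band at 24 h, Il2ra stayed near 11 at 24 h, and Socs2 was highest at 24 h.

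Jak1, the kinase bound to the beta chain, stood at 11.71 with LatA alone and 11.65 in naive T cells, 10.94 with iAb, 11.37 with sAb+LatA and 11.63 with sAb at 3 h, and 10.92 with iAb, 11.02 with sAb+LatA and 11.22 with sAb at 24 h. All 6 antibody arrays were below both arrays without antibody, but by only 0.02 at the closest, and with sAb at 3 h the level was practically that of naive T cells.

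Stat5b, 1 of the paired transcription factors at the end of the kinase cascade, was lower on all 6 antibody arrays. It measured 10.94 with LatA alone and 11.06 in naive T cells, 9.53 with iAb, 10.10 with sAb+LatA and 10.47 with sAb at 3 h, and 9.02 with iAb, 8.87 with sAb+LatA and 9.39 with sAb at 24 h. The antibody arrays were separated from the others by at least 0.47, and every 24 h array was below every 3 h array.

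Stat5a, its close relative in the neighbouring locus, followed another course. It was 9.22 with LatA alone and 9.29 in naive T cells, 8.63 with iAb, 9.39 with sAb+LatA and 8.98 with sAb at 3 h, and 8.05 with iAb, 7.74 with sAb+LatA and 7.92 with sAb at 24 h. The sAb+LatA array was thus both the highest of all at 3 h and the lowest of all at 24 h, and the antibody arrays overlapped those without antibody.

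Cish, the STAT5-induced inhibitor whose promoter window is printed above, was 6.90 with LatA alone and 6.56 in naive T cells, 9.12 with iAb, 8.85 with sAb+LatA and 8.15 with sAb at 3 h, and 8.21 with iAb, 8.33 with sAb+LatA and 8.11 with sAb at 24 h. All 6 antibody arrays were at least 1.21 above both others. A second probe set for Cish, which was dimmer, read 8.04 with iAb, 7.97 with sAb+LatA and 6.96 with sAb at 3 h, against 6.19 in naive T cells, and so gave the stimuli in the same order.

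Socs2, the other feedback inhibitor, was the late gene of the group. It was 5.14 with LatA alone and 4.77 in naive T cells, where it lay below background, 6.25 with iAb, 6.70 with sAb+LatA and 6.63 with sAb at 3 h, and 8.44 with iAb, 9.01 with sAb+LatA and 8.41 with sAb at 24 h. Every 24 h array was above every 3 h array, and every 3 h array was above both arrays without antibody. Its second probe set kept that order of stages over a narrower range, with 5.95 to 6.08 at 24 h, 5.30 to 5.52 at 3 h and 5.13 in naive T cells.

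Against naive T cells at 3 h, the same 4 members were at least 1.5-fold higher under each stimulus, namely Il2, Il2ra, Cish and Socs2. For Socs2 this holds for the brighter probe set. Its second probe set read 5.30 with iAb, 5.42 with sAb+LatA and 5.52 with sAb, against 5.13 in naive T cells, and did not reach 1.5-fold. With iAb, 4 of 8 were higher and 3 lower (Jak1, Stat5a and Stat5b), where 15% of 12241 genes tested were higher and 12.6% lower. With sAb+LatA, 4 of 8 were higher and 1 lower (Stat5b), where 10.4% of 12472 genes were higher and 8.78% lower. With sAb, 4 of 8 were higher and 1 lower (Stat5b, by 1.51-fold, at the edge of the threshold), where 6.18% of 12301 genes were higher and 3.54% lower. These 3 comparisons share the naive array. Over both times, all 6 antibody arrays lay above both arrays without antibody for 4 of the 8 members (Il2, Il2ra, Cish and Socs2), an arrangement shown by 16.9% of the 13373 genes, and below them for 2 (Jak1 and Stat5b), as for 15.3% of genes. With renewed quantile normalization only Stat5b lay below in this way. The median of the expressed genes was itself 0.13 higher on the antibody arrays than on the others. For Il2 this separation, 0.21 at its narrowest, lay below background.

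At 24 h against naive T cells, Il2 was below background throughout and 7 members were compared. Il2ra, Cish and Socs2 were higher and Stat5a and Stat5b lower under every stimulus. Jak1 was lower past 1.5-fold with iAb (−0.74) and with sAb+LatA (−0.63), and its difference with sAb was −0.43. Among all genes, 21.2% were higher and 12.9% lower with iAb, 19.6% and 11.8% with sAb+LatA, and 17.2% and 8.84% with sAb. On its brighter probe set Socs2 had the largest of these member differences, at least 10.9-fold with iAb, at least 16.2-fold with sAb+LatA and at least 10.7-fold with sAb. It was followed on the high side by Il2ra (7.34-fold with iAb, 8.43-fold with sAb+LatA and 7.40-fold with sAb). The second Socs2 probe set read 5.95 with iAb, 6.07 with sAb+LatA and 6.08 with sAb, against 5.13 in naive T cells. The rank of Socs2 above Il2ra therefore rests on 1 probe set. Stat5b had the largest difference on the low side (−2.04 with iAb, −2.19 with sAb+LatA and −1.67 with sAb).

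LatA without antibody left the members near their naive values. None of the 7 members that could be compared passed 1.5-fold in either direction, where 0.919% of 11975 genes were higher and 1.14% lower. Cish differed by 0.34, Socs2 lay below background in naive T cells and so gives only a bound of at least 1.11-fold, and the chemosensory receptor probe sets, which serve as a gauge of array noise at low signal, had 95% of their differences within 0.63.

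The comparison of iAb with sAb sets immobilized antibodies against the same antibodies in soluble form. Because sAb also held the secondary anti-hamster IgG, immobilization and the secondary antibody cannot be told apart. At 3 h iAb gave more Il2, Il2ra and Cish and less Jak1 and Stat5b than sAb. Il2ra was 2.31-fold higher (11.43 with iAb, 10.22 with sAb), Cish 1.96-fold higher (9.12 with iAb, 8.15 with sAb) and Il2 1.63-fold higher (7.35 with iAb, 6.65 with sAb). Stat5b differed by −0.93 (9.53 with iAb, 10.47 with sAb) and Jak1 by −0.69 (10.94 with iAb, 11.63 with sAb). Of all 12422 genes tested, 8.65% were at least 1.5-fold higher and 10.2% lower, against 3 and 2 of the 8 members, and 95% of the chemosensory receptor probe sets differed by less than 0.61. The other members lay within 1.5-fold: Il2rb at 0.00, Stat5a at −0.35 and Socs2 at −0.38.

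Adding LatA to sAb moved the ligand most. At 3 h Il2 was 2.53-fold higher (7.98 with sAb+LatA, 6.65 with sAb), Cish 1.63-fold higher (8.85 with sAb+LatA, 8.15 with sAb) and Il2ra 1.56-fold higher (10.87 with sAb+LatA, 10.22 with sAb). No member was lower past 1.5-fold, and the share of all 12605 genes past it was 2.45% higher and 3.4% lower. The differences for Cish (0.71) and Il2ra (0.65) were barely beyond 0.64, within which 95% of the chemosensory receptor probe sets fell. Both this comparison and that of iAb with sAb rest on the same sAb array.

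Set against sAb+LatA at 3 h, iAb had less Il2 (−0.63, 7.35 with iAb and 7.98 with sAb+LatA) and less Stat5a (−0.76, 8.63 with iAb and 9.39 with sAb+LatA). Among 12526 genes tested 4.49% were lower by 1.5-fold and 4.25% higher, and no member was higher past that mark. The Il2 difference lay inside 0.64, within which 95% of the chemosensory receptor probe sets fell. Il2ra, at 0.56, came close to 1.5-fold. After median centring Il2 (−0.58) no longer passed and Il2ra (0.62) did. Ordered as naive, sAb, sAb+LatA and iAb, the 3 h levels rose step by step for Il2ra and Cish and fell step by step for Jak1 and Stat5b. The same orders were found in 15% of all genes rising and 12.6% falling. Il2 left this order because its highest value was with sAb+LatA.

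**Figure D2:**
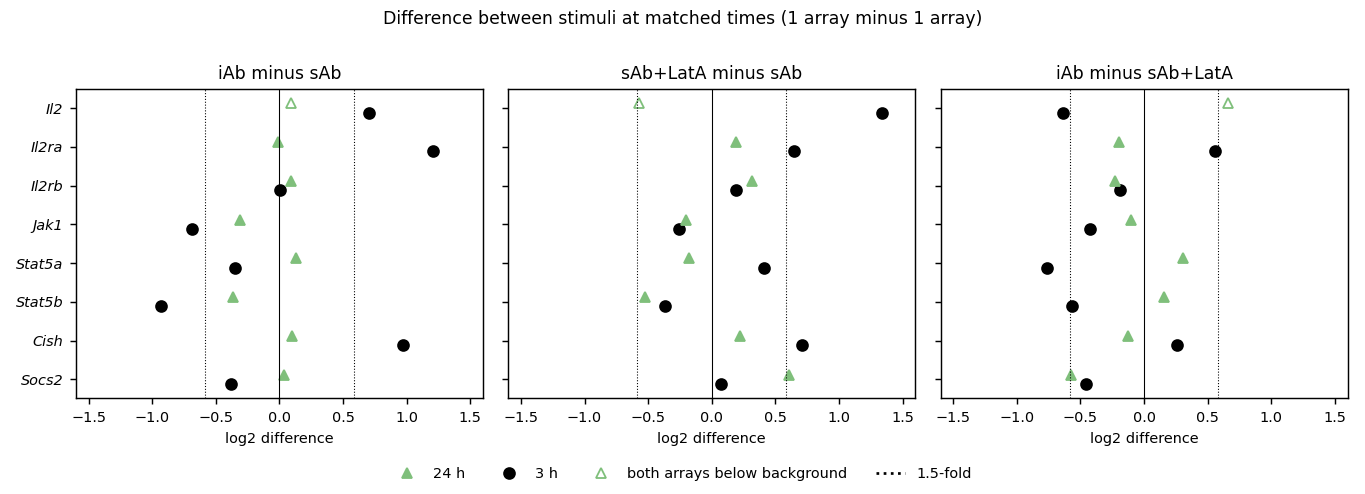
Log2 differences between stimuli for the 8 genes at 24 h (triangles) and 3 h (circles), each 1 array minus 1 array, with dotted lines at 1.5-fold and open symbols where both arrays were below background. At 3 h Il2, Il2ra and Cish lay to the right of 1.5-fold for iAb minus sAb and for sAb+LatA minus sAb, whereas at 24 h only Socs2 (0.60, sAb+LatA minus sAb) did so among genes above background.

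After washing, the members that could be compared differed little between stimuli. At 24 h none of 7 members differed by 1.5-fold between iAb and sAb (3.21% of 12633 genes were higher and 2.59% lower), or between iAb and sAb+LatA (0.961% of 12693 genes higher and 1.06% lower). Between sAb+LatA and sAb only Socs2 passed (0.60, where 1.82% of 12700 genes were higher and 1.94% lower), and with the mean of its probe sets it was 0.30. The largest remaining differences between iAb and sAb were −0.37 for Stat5b and −0.31 for Jak1.

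The course from 3 h to 24 h could be tested by letting the 3 stimuli stand in for replicates. A linear model with stimulus and time as additive terms was fitted to the 6 antibody arrays with limma, leaving 2 residual degrees of freedom, and p-values were adjusted over 13287 genes by Benjamini-Hochberg. The stimuli are not repeats of 1 condition, so the error of this fit also holds any difference between stimuli in their course. At an adjusted p below 0.05, 13.2% of genes were higher and 7.3% lower at 24 h. Centring each array on the median of its expressed genes, which was 0.15 higher at 24 h (6.74) than at 3 h (6.59), changed the split to 1193 higher and 1659 lower, against 1748 higher and 970 lower as deposited.

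Of the 8 members, 2 rose and 3 fell. Il2 fell by 3.44 (SE 0.34, limma adjusted p = 0.0022), a value that includes 24 h levels below background, and the difference was negative in 3 of 3 stimuli. Socs2 rose by 2.10 (SE 0.14, limma adjusted p = 0.0010) and Il2rb by 0.55 (SE 0.11, limma adjusted p = 0.020), each in 3 of 3 stimuli. Stat5a fell by 1.10 (SE 0.21, limma adjusted p = 0.016) and Stat5b by 0.94 (SE 0.16, limma adjusted p = 0.013), each in 3 of 3 stimuli. Without both sAb+LatA arrays the adjusted p was 0.15 for Il2rb, 0.068 for Stat5a and 0.082 for Stat5b, and with median centring it was 0.055 for Il2rb.

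Il2ra, Cish and Jak1 did not pass. Il2ra differed by 0.32 (SE 0.23, limma adjusted p = 0.38), with −0.34 under iAb, 0.42 under sAb+LatA and 0.88 under sAb. Cish differed by −0.49 (SE 0.18, limma adjusted p = 0.11), with −0.91 under iAb, −0.52 under sAb+LatA and −0.04 under sAb. Jak1 differed by −0.26 (SE 0.13, limma adjusted p = 0.21). For Il2ra without both iAb arrays the estimate was 0.65 (limma adjusted p = 0.035), and for Cish without both sAb arrays it was −0.72 (limma adjusted p = 0.027). Each was the only 1 of 10 settings to pass for its gene. Each left out the stimulus that departed from the rest, iAb (−0.34) for Il2ra and sAb (−0.04) for Cish.

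By single arrays, the members past 1.5-fold between 24 h and 3 h were Socs2 (higher) and Il2 and Cish (lower) with iAb, where 16.1% of genes were higher and 9.48% lower. With sAb+LatA they were Il2rb and Socs2 (higher) and Il2, Stat5a and Stat5b (lower), where 13.1% were higher and 7.38% lower. With sAb they were Il2ra and Socs2 (higher) and Il2, Stat5a and Stat5b (lower), where 9.46% were higher and 5.62% lower.

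**Figure D3:**
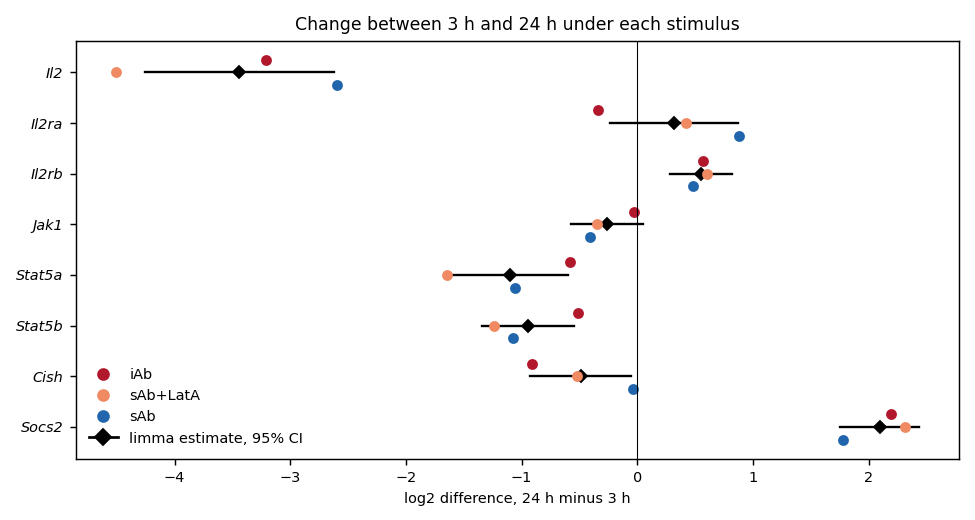
Log2 difference, 24 h minus 3 h, for the 8 genes under each stimulus (coloured points, 1 array minus 1 array) with the limma estimate over the 3 stimuli and its 95% confidence interval (black). Il2, Stat5a and Stat5b lay left of 0 and Socs2 and Il2rb right of it under every stimulus, whereas the points of Il2ra lay on both sides.

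The same fit found no effect of the stimulus itself when averaged over both times. For iAb minus sAb, 0 of 13287 genes passed in limma (smallest adjusted p = 0.26), with 1075 higher and 1041 lower at an unadjusted p below 0.05, among them the members Jak1 (−0.50, SE 0.16) and Stat5b (−0.65, SE 0.20). For sAb+LatA minus sAb, 0 genes passed (smallest limma adjusted p = 0.80), with 281 higher and 454 lower at that unadjusted level and no member among them. The 95% confidence interval of iAb minus sAb ran from −0.08 to 1.28 for Il2ra and from −0.60 to 1.40 for Il2. For Il2ra a difference of up to 1.28 on the log2 scale thus remains compatible with these arrays. The Il2 interval includes 24 h levels below background and so bounds no measured difference. Without the 24 h iAb array, the estimate of iAb minus sAb was 1.09 for Il2ra and −0.97 for Stat5b. That fit holds 1 iAb array, so its error contains no spread of iAb and no test is given.

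The surroundings of the pathway were described through 7 lists with 82 measured genes of 90 listed. Of 13 other STAT5 targets at 3 h, 4 were at least 1.5-fold higher (8.65% of all genes) and 2 lower (10.2% of all genes) when iAb was set against sAb, and the list's median was 0.20 against −0.02 over all genes. Lif, a cytokine of the IL-6 family, differed by 2.29 (8.62 with iAb, 6.33 with sAb), and Socs1, an inhibitor of JAK kinases, by 1.15 (9.26 with iAb, 8.11 with sAb), and the other 2 higher genes were Ccnd2 and Myc. The lower genes were the cyclin gene Ccnd3 (−1.10, 7.04 with iAb and 8.13 with sAb) and the survival kinase gene Pim2 (−0.83, 8.21 with iAb and 9.04 with sAb). Over time 3 of the 13 rose and 2 fell in limma at adjusted p below 0.05, where 13.2% of all genes rose and 7.3% fell. The list's median over time was −0.03 against 0.03 over all genes. Ccnd3 rose by 1.69 (limma adjusted p = 0.0065) and Pim2 by 1.53 (limma adjusted p = 0.0062), together with Osm, while Myc and Pim1 fell.

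Among the other cytokines and receptors of the common gamma chain family, iAb against sAb at 3 h gave 2 of 7 genes tested as higher and 1 as lower, where 8.65% of all genes were higher and 10.2% lower. Il15ra, the IL-15 receptor alpha chain, which pairs with the beta chain as Il2ra does, was 3.83-fold higher (8.31 with iAb, 6.38 with sAb). Il4 was 3.67-fold higher (6.87 with iAb, 4.99 with sAb), close to background with sAb. Il7r, the IL-7 receptor alpha chain that resting T cells depend on, differed by −2.64 (8.93 with iAb, 11.58 with sAb). At 24 h Il7r still read 9.68 with iAb and 11.29 with sAb.

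The remaining signalling lists are read against the same shares of all genes, 8.65% higher and 10.2% lower. For iAb against sAb at 3 h, 0 of 6 other JAK and STAT genes were higher and 2 were lower, Stat4 (−0.67) and Tyk2 (−0.63). Of 12 phosphatases and inhibitors, only Sh2b3, an adaptor that restrains JAK2 signalling, passed 1.5-fold, by 0.88 (8.65 with iAb, 7.77 with sAb), and it fell by 1.10 over time (limma adjusted p = 0.013). Of 16 genes in the PI3K and MAPK branches, which run in parallel to STAT5, 0 were higher and 3 lower, the PI3K subunit genes Pik3cd (−1.15) and Pik3r1 (−0.79) and the exchange factor gene Sos1 (−0.68). In the time course Jak2 (−0.97, limma adjusted p = 0.011), Stat3 and Stat6 fell, as did 4 of 12 inhibitors and 2 of 16 PI3K and MAPK genes, while Akt1 rose by 0.67 (limma adjusted p = 0.012), where 7.3% of all genes fell and 13.2% rose.

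**Figure D4:**
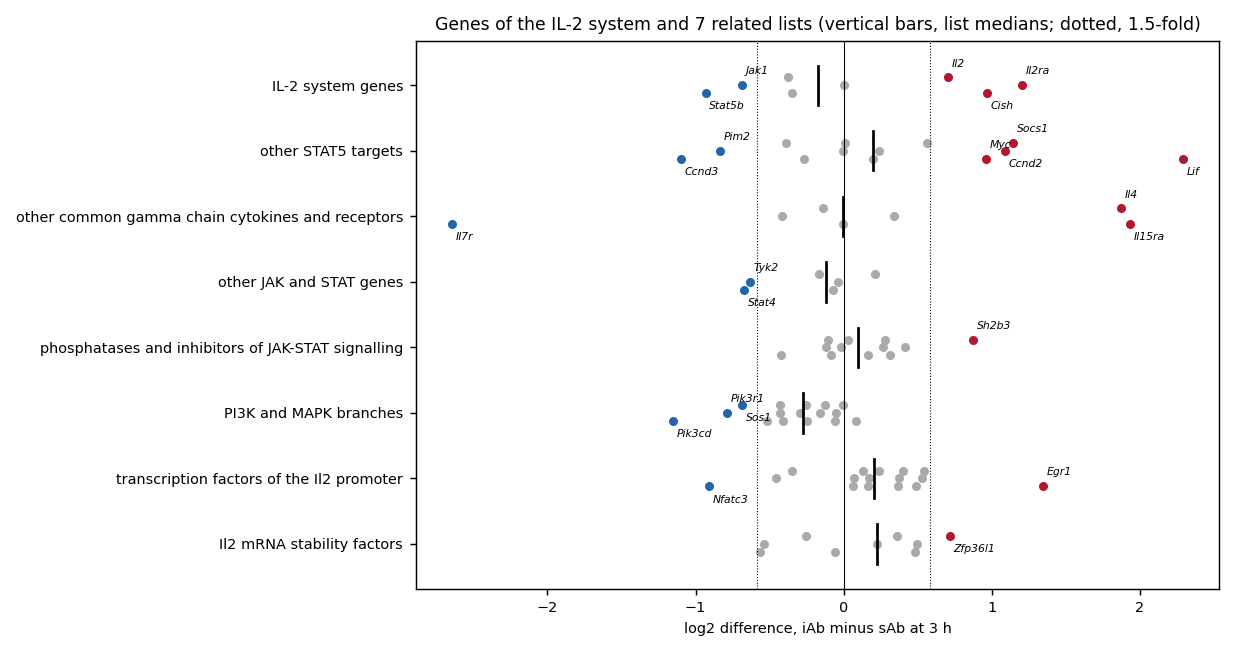
Log2 difference between iAb and sAb at 3 h for the 8 measured IL-2 system genes and the tested genes of 7 related lists, 1 point per gene, with vertical bars at the list medians and dotted lines at 1.5-fold. Red points were higher with iAb and blue points lower, and Lif (2.29) and Il7r (−2.64) lay farthest out.

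Genes for factors that act on the Il2 promoter were mostly lower at 24 h than at 3 h, but many did not follow the course of Il2. Fosl2, Fos, Fosb, Junb, Zeb1 and Crem were higher in naive T cells, where Il2 was below background, than on any 3 h array. Fosl2 read 10.75 in naive T cells and Fos 7.51, against 10.06 and 6.95 with iAb at 3 h. Egr1, Nfatc1 and Rel were lower in naive T cells than on every 3 h array with antibody. Of 16 transcription factor genes, 10 fell, 1 rose (Nfatc2) and 5 did not pass in limma, with a median of −0.94 against 0.03 over all genes, of which 7.3% fell and 13.2% rose. After median centring 1659 of all genes fell, against 970 as deposited. Fosl2, a partner of JUN proteins in AP-1, fell by 2.68 (limma adjusted p = 0.0010), the zinc finger factor Egr1 by 1.89 (limma adjusted p = 0.010), Fos, the founding AP-1 partner, by 1.68 (limma adjusted p = 0.0040), and Rel, the c-Rel subunit of NF-κB, by 1.61 (limma adjusted p = 0.0016). Between iAb and sAb at 3 h only Egr1 (1.35, 10.30 with iAb and 8.95 with sAb) and Nfatc3 (−0.91, 9.45 with iAb and 10.36 with sAb) passed 1.5-fold. At 3 h no gene of this list did so between sAb+LatA and sAb, the pair between which Il2 differed most. Jun fell just short of the mark there (9.04 with sAb+LatA, 8.45 with sAb). All of these are mRNA levels, and the activity of the factors was not measured. The part of the factors in the course of Il2 was not tested.

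Some of the genes for proteins that set the lifetime of Il2 mRNA were also lower late. Of 9 measured, 5 fell and 0 rose in limma at adjusted p below 0.05 (7.3% and 13.2% of all genes), namely Zfp36l1 (by 1.20, limma adjusted p = 0.0074), Zfp36 (by 1.05, limma adjusted p = 0.018), Zc3h12a (by 0.71, limma adjusted p = 0.024), Rc3h1 and Rc3h2. The first 3 encode proteins that promote decay of cytokine mRNA, Zc3h12a being an RNase, and Rc3h1 and Rc3h2 encode Roquin proteins of similar function. Ybx1 (0.40, limma adjusted p = 0.059), Ilf2 (0.40, limma adjusted p = 0.058), Elavl1 (0.20) and Zfp36l2 (0.07) had positive estimates and did not pass. Between iAb and sAb at 3 h only Zfp36l1 passed 1.5-fold (0.72, 11.62 with iAb and 10.91 with sAb).

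Genes whose profile over the 8 arrays lay nearest to that of Il2, Il2ra and Cish were sought by the root-mean-square difference between log2 profiles centred on their own mean, among 12010 other genes. Nearest to Il2 was Xcl1, a chemokine gene (0.56, against a median of 1.89 over the genes compared), followed by the signalling inhibitor gene Spry1 (0.80), the chemokine receptor gene Ccr4 (0.82), the transcription factor gene Irf4 (0.89) and Trib1 (0.94). Il2 was below background on 5 of the 8 arrays, so its distances and the order of these genes rest partly on values that are not measured levels. Xcl1 read 12.45 with iAb, 11.26 with sAb+LatA and 10.18 with sAb at 3 h, so that unlike Il2 it was highest with iAb.

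Il2ra had closer neighbours. Srm, which encodes spermidine synthase, lay at 0.18 (median over genes 1.27), followed by Shmt1 of folate metabolism (0.24), Rrp1b (0.30), the cytokine gene Lta (0.31) and Gbp4 (0.32). Nearest to Cish were Usp18, an interferon-induced protease gene (0.16, median over genes 0.86), Trmt61a (0.17), Znhit6 (0.19), Polr1b, which encodes a subunit of RNA polymerase I (0.20), and Noc4l (0.20). Points on these profiles share the arrays and their normalization, and likeness here describes 8 values per gene.

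**Figure D5:**
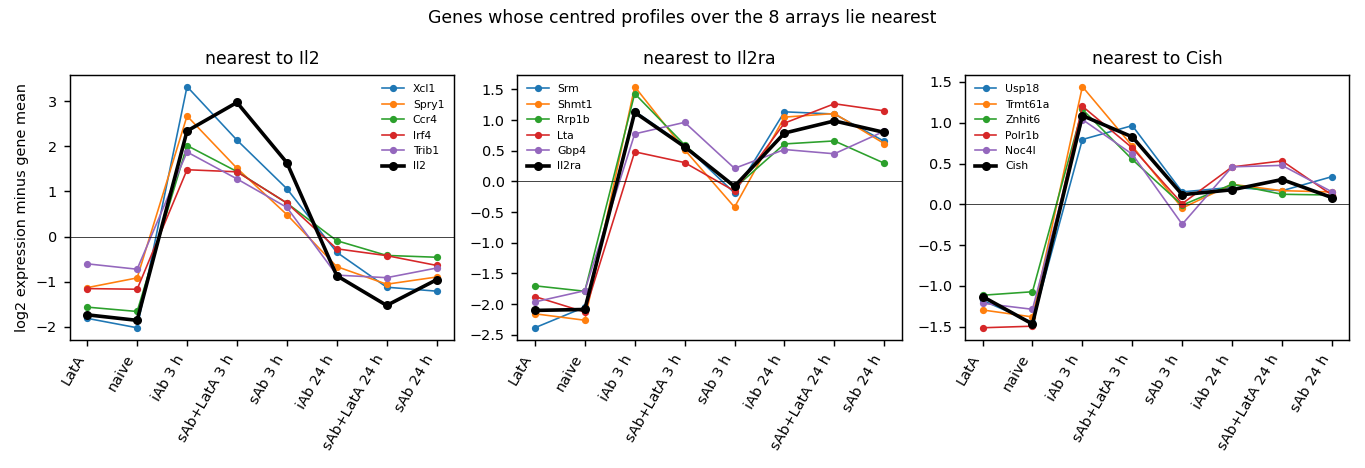
Log2 expression minus each gene's own mean on the 8 arrays (array order on the horizontal axis, 1 array per point) for Il2, Il2ra and Cish (black) and the 5 genes nearest to each. Il2 was highest with sAb+LatA at 3 h, whereas its 5 neighbours were highest with iAb at 3 h.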

How the data were processed

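RNA from mouse CD3 T cells was hybridized to 8 Affymetrix Mouse Gene ST 2.0 arrays, 1 per condition. The authors computed signals with the GeneChip Command Console Software and normalized them by RMA, which corrects background, equalizes the arrays' distributions by quantiles and summarizes the probes of each set. The deposited table holds 1 value per probe set and array, and its log2 scale was read from the values (1.20 to 14.30). Software versions, annotation and genome build of the array processing are not given in the sources used here.

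Of 41345 probe sets, 23521 carried 1 gene symbol in the platform annotation, 1820 several and 16004 none listed. The probe sets with 1 symbol gave 22180 genes, with the probe set of highest mean for each of the 1082 genes that had several. Differences were subtracted log2 values, and a gene entered a comparison if either array showed it above background. Lower bounds used the background of the dim array. The time and stimulus terms were fitted with limma 3.58.1 in R 4.3.3 and tested on simulated data. Python 3.11.15, numpy 2.4.6, pandas 2.3.3 and matplotlib 3.10.9 did the rest. No depth exists for arrays, and their number limits the precision. No 2 arrays held identical values.

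Members, marker lists, motifs and the 7 context lists were chosen with earlier results of these data known. All 10 members are named. From each context list up to 4 genes were to be named by size of difference, at 1.5-fold or more in iAb against sAb at 3 h or in the time effect. Other context genes are named where a count was 5 or fewer, or to show how further genes of a list ran, chosen after their values were seen. For likeness, predicted genes, receptor segments, small RNAs and pseudogenes were left out. Alternatives covered background (none, or the 99th percentile), median centring, renewed quantile normalization, the mean of probe sets, a 2-fold threshold, an intensity trend and omitted arrays. The RefSeq promoter table (GRCm38.p6) held windows for 8 of the 10 members, and Il2rb and Socs2 are named only. No column of the deposited table was left unused.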

Additional observations from a re-analysis of the deposited data

Results flagged for a closer look

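For a pair of genes the same contrast differed in size and in sign between groups, in some cases with a value close to 0 on one side. None of these differences was tested, since each condition had 1 array. Il2ra was level between iAb and sAb at 24 h (−0.01) and higher with iAb at 3 h (1.21), a difference of −1.22. Seen along time, Il2ra was lower at 24 h than at 3 h with iAb (−0.34) and higher with sAb (0.88), which is the same difference of −1.22.

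Stat5a was higher with iAb than with sAb+LatA at 24 h (0.31) and lower at 3 h (−0.76), a difference of 1.07. Between sAb+LatA and naive T cells, Stat5a was lower at 24 h (−1.54) and slightly higher at 3 h (0.10), a difference of −1.65. Both Stat5a values rest on the sAb+LatA arrays.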

How the results depend on the processing

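No paired analysis was possible because each condition had 1 array and the labels number no replicates. No called value changed its sign. Of the values that answer a comparison, 239 kept within 1.5 times of the reported count or on their side of the threshold, and 29 moved, all of them counts. Of single-gene values, 981 were unchanged in call, 43 moved, 4 gained and 4 lost significance. The gains of Il2ra and Stat5b for iAb minus sAb came from a fit with 1 iAb array, which gives no test of iAb. With no background filter, 1 member (Il2) became higher with iAb than with sAb+LatA at 24 h. Il2 then also passed 1.5-fold at 24 h against naive T cells with iAb (0.99) and with sAb (0.90), on values below background. With median centring, 2 members were lower with sAb than in naive T cells at 3 h, iAb against sAb+LatA had 1 member higher and 1 lower at 3 h and 1 lower at 24 h, 4 were lower at 24 h than at 3 h with iAb, and 1 was higher at 24 h than at 3 h with sAb+LatA, while 1659 genes were lower in the time effect. With renewed quantile normalization, 0 members were lower with sAb than in naive T cells at 3 h, 1 was lower with iAb than with sAb+LatA at 24 h, 2 were higher at 24 h than at 3 h with iAb and 1 with sAb+LatA, and 1 member (Stat5b) lay below both arrays without antibody on all 6 antibody arrays. With the mean of probe sets, 0 members were higher with sAb+LatA than with sAb at 24 h. With a 2-fold threshold, lower members numbered 1 with iAb, 0 with sAb+LatA and 0 with sAb against naive T cells at 3 h, 0 for iAb against sAb and 0 for iAb against sAb+LatA at 3 h, and 1 at 24 h against 3 h with iAb. At 2-fold, higher members numbered 1 for iAb against sAb at 3 h (Il2ra), 1 for sAb+LatA against sAb at 3 h (Il2) and 0 at 24 h, and 1 at 24 h against 3 h with sAb+LatA and 1 with sAb. Leaving out both arrays of a stimulus gave 585 to 1555 genes higher and 286 to 870 lower in the time effect, the lowest without sAb+LatA. Leaving out 1 array gave 0 to 461 genes higher and 0 to 543 lower for iAb minus sAb, the highest without the 24 h iAb array. Apart from the settings whose construction gives fewer arrays or another threshold, the cause of these changes was not tested. Signal limits Il2 at 24 h, which is below background on every array.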
